A study of Mus musculus with 17 samples.

Results

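Interferon response genes are the genes that a cell switches on when it senses interferon, the secreted alarm signal of antiviral and antibacterial defence. The 39 genes described here form a list of named genes of the interferon pathway, with no threshold on their values. The list was chosen with earlier results of these data known. Each gene was read through the brightest of its probes. Of the 39 genes, 38 have a probe on the array and 36 passed the filter on dim probes, among 13049 genes tested in all. Ifi44 has no probe here, and the probes of Ifit1 and Xaf1 read 5.68 to 5.75 and 5.70 to 5.91 on the 17 arrays, at background. The 36 tested genes comprise 4 sensors of foreign nucleic acid, 4 transcription factors, 18 antiviral effectors, 6 interferon-inducible GTPases and 4 genes of antigen processing.

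Type I interferons bind a receptor that activates the kinases Jak1 and Tyk2, and the signal reaches genes through a transcription factor complex with Stat2 and Irf9 that binds the interferon-stimulated response element (ISRE) in promoters. Interferon gamma acts through a different element, the gamma-activated site (GAS). In liver, hepatocytes, Kupffer cells and endothelial cells all respond to interferon, and the response is known from viral hepatitis and from sterile injury.

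The RNA came from mouse liver in 4 groups. In 4 arrays of FSP1 ablated liver the mice carried the label tk "FSP1 +" and had fibrosis from carbon tetrachloride (CCl4), a toxic solvent whose breakdown products damage hepatocytes. In 3 arrays of aSMA ablated liver the label was tk "aSMA +", also with CCl4. A further 6 arrays, called CCl4 liver here, were tk "Neg" with CCl4, and 4 arrays of healthy liver were tk "No" with no treatment. FSP1 is encoded by S100a4 and taken as a mark of fibroblasts, and aSMA is encoded by Acta2 and taken as a mark of myofibroblasts. The labels do not say what agent was used for ablation, whether the CCl4 group received it too, or the strain, age or sex of the mice, and they do not say that each array is a separate animal, so p-values measure the spread between arrays.

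Between 13818 and 16279 of 25697 probes lay above background on an array. Precision is limited by how many arrays a group has. Of 8 hepatocyte markers, Apoa1, Apoa2, Ttr and Ambp read 14.17 to 14.75 on the normalized log2 scale on all 17 arrays. Apoh and Serpina1a were lower in CCl4 than in healthy liver, at -0.61 (adjusted p = 0.0288) and -0.75 (adjusted p = 0.00638), and Serpina1a also in both ablated groups against healthy liver. The probe for Alb, at 2.66 (adjusted p = 0.00716), and Fgb, at 1.13 (adjusted p = 0.0194), were higher in aSMA ablated than in healthy liver. None of the 8 passed between FSP1 ablated and CCl4 liver, and the part of these genes in the members' results was not tested. The probe for Alb read 6.22 to 6.50 on the FSP1 ablated and 6.08 to 6.60 on the healthy arrays. It read 6.26 to 6.42 on CCl4 arrays 1 to 3, but 8.62 to 9.31 on CCl4 arrays 4 to 6. On the aSMA ablated arrays it read 8.80 to 9.23. All these values lie far below the 14.17 to 14.75 of the other hepatocyte markers named above. Alb in this text therefore stands for the signal of a dim probe, and whether it follows albumin RNA was not tested. Xist, from the inactive X chromosome, was high on both sets of ablated arrays and on CCl4 arrays 1 to 3, and Y-linked transcripts were high on CCl4 arrays 5 and 6 and on the healthy arrays. Neither signal was high on CCl4 array 4. The deposited intensities had upper quartiles of 165.4 to 178.8 on the arrays of the 3 CCl4-treated groups. Those of the healthy arrays were 63.7 to 65.7, a lower scale. Lower calls against healthy liver depend on this scale, and Apoh and Serpina1a were read only after quantile normalization. Acta2 was 2.95 lower (SE 0.46) in FSP1 ablated than in CCl4 liver on the log2 scale (adjusted p = 0.000571) and differed by -2.27 (SE 0.50) in aSMA ablated liver (adjusted p = 0.11). Between FSP1 ablated and aSMA ablated liver Acta2 differed by -0.67 (adjusted p = 0.538 by limma), with overlap, so it does not separate these labels. The S100a4 probe read 5.85 to 6.21 on all arrays, near background, and so does not check the FSP1 label.

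The promoters of the members were searched for the elements through which the pathway is known to act. RefSeq promoter windows of 300 bases on GRCm38.p6, from 250 before to 50 after the annotated start, were matched by symbol for 29 of the 39 members; the others are Dhx58, Iigp1, Mx1, Mx2, Oas2, Parp14, Rtp4, Tap2, Usp18 and Zbp1. The ISRE was searched on both strands as GAAA, any 2 bases, GAAA, which reads TTTC, any 2 bases, TTTC on the other strand. It was present for 14 of the 29 members, or 48.3%, and for 3.99% of all 27025 genes with a window. The GAS, searched as TTCNNNGAA, which reads the same on both strands, was present for 7 members, or 24.1%, and for 9.55% of all genes. A match describes the letters in the window and is not a shown binding site. Printed below, with ISRE matches in capitals, are the windows of the members that were lower after FSP1 ablation and hold the element. The window of Oas1a, the neighbour of Oas1g on chromosome 5, was added after its values were seen.
Oas1g: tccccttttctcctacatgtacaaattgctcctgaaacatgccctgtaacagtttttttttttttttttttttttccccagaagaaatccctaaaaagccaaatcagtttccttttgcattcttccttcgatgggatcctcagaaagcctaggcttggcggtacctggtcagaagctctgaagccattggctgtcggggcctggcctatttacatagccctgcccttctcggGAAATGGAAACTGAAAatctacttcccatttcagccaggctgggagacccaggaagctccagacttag
Isg15: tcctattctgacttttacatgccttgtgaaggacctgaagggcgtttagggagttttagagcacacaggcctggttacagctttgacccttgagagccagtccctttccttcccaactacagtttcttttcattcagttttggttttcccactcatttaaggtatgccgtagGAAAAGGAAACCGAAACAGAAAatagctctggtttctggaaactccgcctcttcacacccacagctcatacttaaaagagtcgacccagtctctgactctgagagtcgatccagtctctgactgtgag
Gbp2: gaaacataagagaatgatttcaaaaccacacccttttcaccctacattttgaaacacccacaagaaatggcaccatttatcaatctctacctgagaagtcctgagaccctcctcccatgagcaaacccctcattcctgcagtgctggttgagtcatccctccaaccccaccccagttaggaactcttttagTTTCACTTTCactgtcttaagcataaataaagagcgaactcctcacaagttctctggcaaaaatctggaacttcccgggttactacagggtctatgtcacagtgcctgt
Rsad2: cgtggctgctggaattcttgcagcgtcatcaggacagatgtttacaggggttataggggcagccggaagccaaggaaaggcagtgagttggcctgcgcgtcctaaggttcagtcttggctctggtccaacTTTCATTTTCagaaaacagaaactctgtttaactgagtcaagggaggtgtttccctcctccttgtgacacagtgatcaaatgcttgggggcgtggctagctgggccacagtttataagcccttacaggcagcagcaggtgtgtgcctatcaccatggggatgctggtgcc
Oas1a: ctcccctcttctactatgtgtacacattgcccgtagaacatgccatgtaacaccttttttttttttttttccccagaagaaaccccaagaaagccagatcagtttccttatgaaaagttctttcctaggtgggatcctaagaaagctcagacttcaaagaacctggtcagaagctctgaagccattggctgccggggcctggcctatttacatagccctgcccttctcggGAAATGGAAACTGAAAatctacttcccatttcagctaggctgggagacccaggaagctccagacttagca

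The Oas1g window is chr5:120887564-120887863 on the minus strand, and its 2 overlapping matches run from base -18 to base -3 counted from the start. The Oas1a window, chr5:120907476-120907775 on the minus strand, holds the same capital run from -20 to -5, and the longest run of bases that the 2 windows share is 73 long. In the Isg15 window, chr4:156200769-156201068 on the minus strand, 3 matches overlap between -78 and -57. Gbp2, at chr3:142620413-142620712 on the plus strand, and Rsad2, at chr12:26456403-26456702 on the minus strand, each hold 1 match in the reverse orientation, the one at -59 to -50 and the other at -120 to -111. The windows of Ifit2, Cmpk2 and Oasl2, which were also lower after FSP1 ablation, have no match with these letters.

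FSP1 ablated liver was set against CCl4 liver to describe injured liver that the labels call FSP1 ablated; the S100a4 probe, at -0.03 (adjusted p = 0.841), gives no check that such cells were removed. Of the 36 members, 9 fell and none rose: the sensor gene Dhx58, the antiviral effectors Oas1g, Isg15, Rsad2, Cmpk2, Usp18, Oasl2 and Ifit2, and the GTPase gene Gbp2. Among all 13049 genes, 7.25% were called lower and 5.42% higher. Since the list was chosen with earlier results of these data known, these shares are a description and not a test. The falls ranged from 2.93-fold in Oas1g to 1.39-fold in Gbp2. For statements here and below that groups do not overlap, the share of such genes over all genes was not counted. Such statements are description and no further support. Counting members that did not pass as well, 34 of 36 differences were below 0, as were 47.1% over all genes, and the median difference was -0.31 against 0.01 over all genes. The test was limma's moderated test across all genes, two-sided, with Benjamini-Hochberg adjustment and a threshold of 0.05, and values are normalized log2 intensities. Of 24 alternative settings, Dhx58, Oas1g and Gbp2 passed in all 24, Ifit2 and Isg15 in 23, Cmpk2 and Rsad2 in 22, Usp18 in 15 and Oasl2 in 12. In the setting with every probe on its own, the probe with the smallest p stood for its gene. In bulk RNA, fewer cells of a type and less RNA per cell cannot be told apart.

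**Figure D1:**
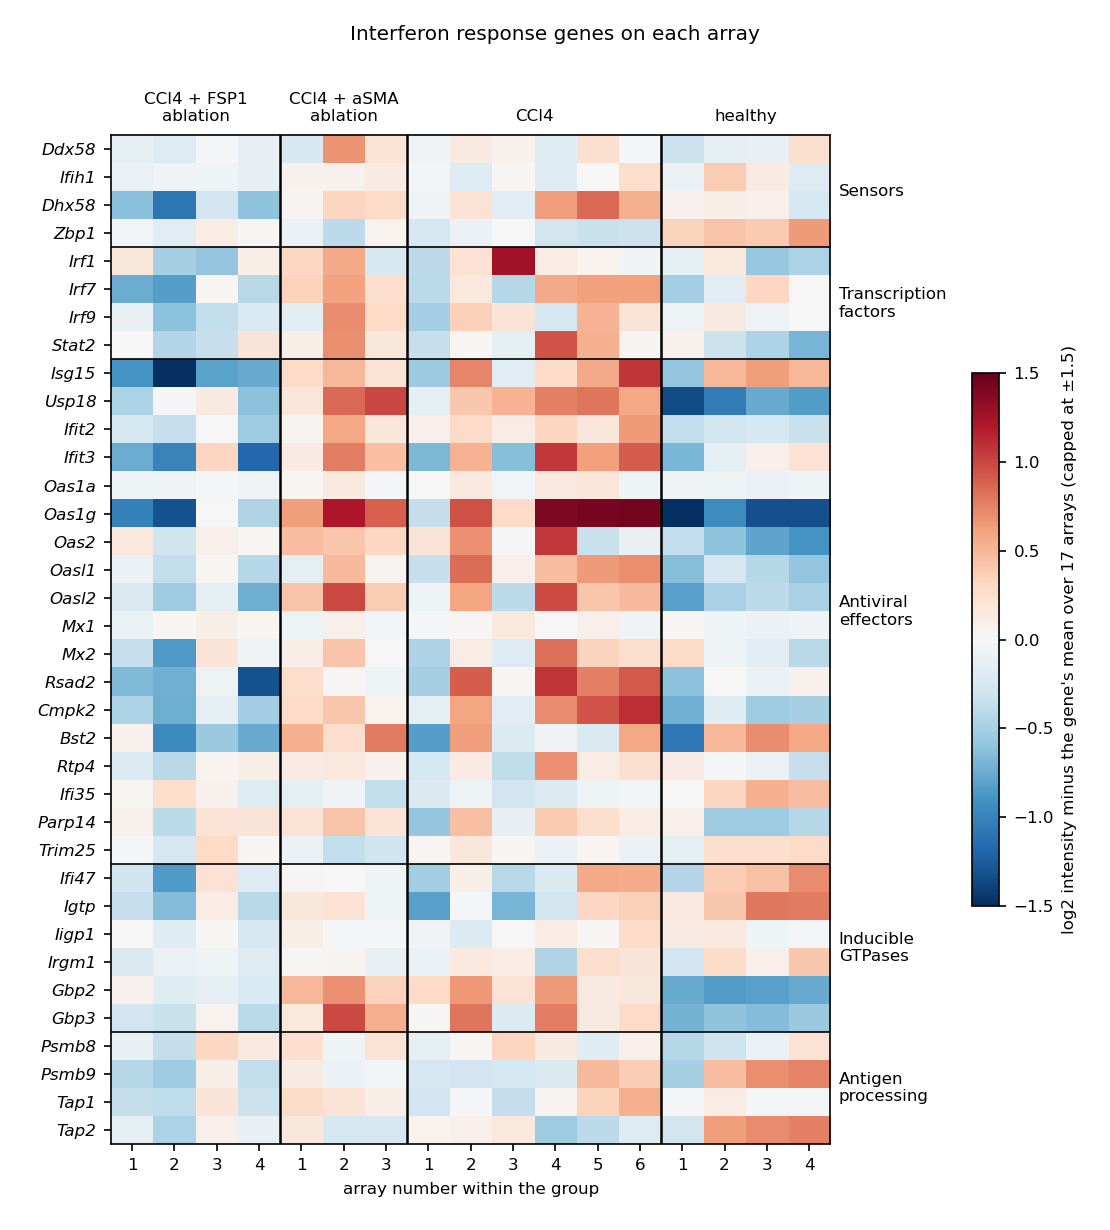
Normalized log2 intensity of the 36 tested members (rows, by role) on each of the 17 arrays (columns, numbered within the group), as the deviation from the gene's mean over all arrays. Oas1g, Isg15, Rsad2 and Cmpk2 are blue across most FSP1 ablated arrays and red on CCl4 arrays 4 to 6, while Gbp2, Oas1g and Usp18 are blue on the healthy arrays.

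Among the sensors, Dhx58 fell. It encodes LGP2, a helicase that binds viral RNA and tunes the signal of RIG-I and MDA5 (gene at chr11:100694884-100704271, GRCm38.p6). Dhx58 read 7.08, 6.62, 7.41 and 7.10 on the FSP1 ablated arrays, and 7.53, 8.08 and 8.55 as the lowest, median and highest of the 6 CCl4 arrays. The groups did not overlap, and the difference was -0.98 (SE 0.19; adjusted p = 0.00297). The FSP1 ablated arrays also lay below the healthy arrays, which read 7.43 to 7.79. Ddx58, the gene of RIG-I, read 6.57 to 6.74 in FSP1 ablated and 6.58 to 6.99 in CCl4 liver, and Ifih1, the gene of MDA5, was close to background at 5.89 to 5.97 against 5.82 to 6.28. Zbp1, a sensor of Z-form nucleic acid that can start necroptosis, differed by 0.19 (adjusted p = 0.218) and is 1 of the 2 members above 0.

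None of the 4 transcription factor genes passed, and all 4 differences were below 0. Irf7, the factor that amplifies type I interferon output, read 6.42, 6.35, 7.20 and 6.76 on the FSP1 ablated arrays, against 6.74, 7.54 and 7.79 as the lowest, median and highest CCl4 arrays. It differed by -0.68 (SE 0.24; adjusted p = 0.0821), and the groups overlap through FSP1 ablated arrays 3 and 4. Irf9, the DNA-binding part of the ISRE factor, read 8.65, 8.14, 8.38 and 8.52, against 8.24, 8.95 and 9.27, a difference of -0.42 (adjusted p = 0.186). Irf1, which acts downstream of interferon gamma, read 10.25, 9.59, 9.49 and 10.18, against 9.69, 10.17 and 11.35, and differed by -0.40 (SE 0.27; adjusted p = 0.394). Its highest CCl4 value, on array 3, stands apart from the other 5 at 9.69 to 10.30. Stat2, the partner of Irf9, read 8.13, 7.68, 7.78 and 8.32, against 7.77, 8.16 and 9.06, and differed by -0.32 (SE 0.23; adjusted p = 0.43). All 4 genes overlap between the groups.

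The antiviral effectors held 7 of the 9 falls. Oas1g, of the family that makes 2-5A to activate RNase L (chr5:120876142-120887613), read 7.41, 7.11, 8.42 and 7.98 on the FSP1 ablated arrays, and 8.06, 9.60 and 9.86 as the lowest, median and highest CCl4 arrays. Its groups overlap through FSP1 ablated array 3 and CCl4 array 1, and it fell by 1.55 (SE 0.34; adjusted p = 0.00664). A second Oas1g probe gave -0.92 (adjusted p = 0.015), and a dimmer probe read near background. Isg15, a ubiquitin-like protein that is attached to viral and host proteins (chr4:156199424-156200818), read 7.23, 6.58, 7.33 and 7.38, against 7.58, 8.55 and 9.20 on the CCl4 arrays. The groups did not overlap, and Isg15 fell by 1.33 (SE 0.30; adjusted p = 0.00801). Usp18, the protease that removes Isg15 and damps the interferon receptor, read 8.92, 9.38, 9.53 and 8.78, against 9.26, 9.94 and 10.20. It fell by 0.73 (SE 0.21; adjusted p = 0.0302), and its groups overlap through CCl4 array 1. A second Usp18 probe gave -0.84 (adjusted p = 0.0447), and a dimmer probe -0.22 (adjusted p = 0.664).

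Rsad2, the gene of viperin, and Cmpk2, which supplies its nucleotide substrate, are neighbours on chromosome 12 (chr12:26442743-26456452 and chr12:26469117-26479837). Rsad2 read 7.21, 7.15, 7.80 and 6.56 on the FSP1 ablated arrays, against 7.38, 8.71 and 8.95 as the lowest, median and highest CCl4 arrays, and fell by 1.22 (SE 0.29; adjusted p = 0.0115). Cmpk2 read 6.60, 6.34, 6.94 and 6.56, against 6.91, 7.73 and 8.18, and fell by 0.97 (SE 0.23; adjusted p = 0.0105). In both genes CCl4 arrays 1 and 3 were the lowest of their group, and FSP1 ablated array 3 the highest of its own. Ifit2, which binds viral RNA and limits its translation, read 6.33, 6.24, 6.58 and 6.05, against 6.67, 6.82 and 7.23, with no overlap. It fell by 0.56 (SE 0.12; adjusted p = 0.00789), and its second probe fell by 0.63 (adjusted p = 0.00891). Oasl2, an OAS-like protein, fell by 0.74 (adjusted p = 0.0397), while its dimmer second probe differed by -0.14 (adjusted p = 0.224). Oasl1 differed by -0.61 (adjusted p = 0.0627) and Ifit3, a partner of Ifit1, by -0.95 (adjusted p = 0.111), each without passing. Ifi35 was the other member above 0, at 0.19 (adjusted p = 0.28).

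**Figure D2:**
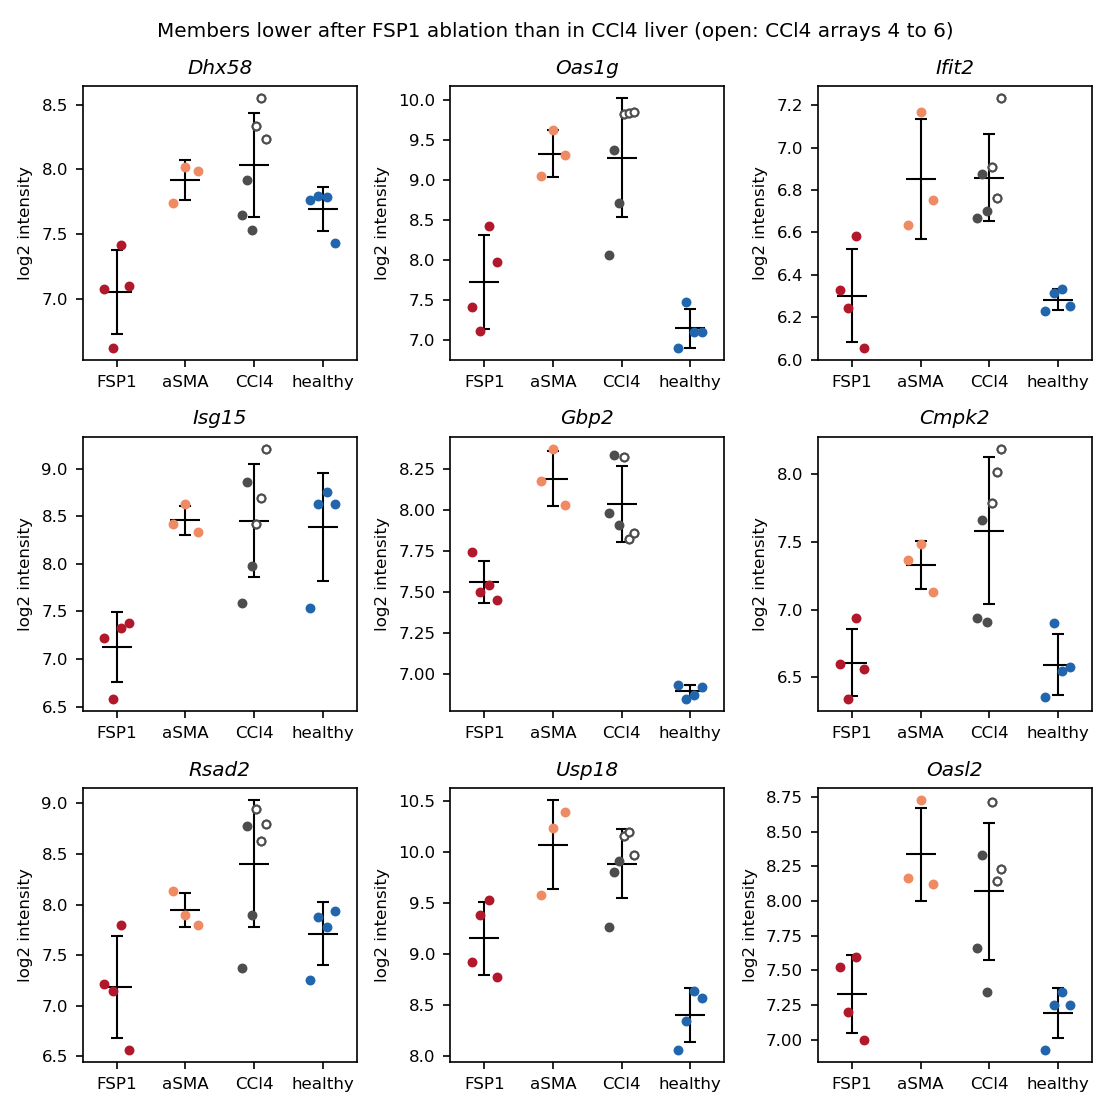
Normalized log2 intensity of the 9 members that fell after FSP1 ablation, 1 point per array, with group means and SDs (bars), from left to right FSP1 ablated, aSMA ablated, CCl4 and healthy liver. CCl4 arrays 4 to 6 are drawn as open circles. Dhx58, Ifit2, Isg15 and Gbp2 show no overlap between the FSP1 ablated and the CCl4 arrays. The share of such genes over all genes was not counted.

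The Mx genes, whose GTPases trap viral particles, did not pass. Mx2 read 6.64 to 7.68 in FSP1 ablated and 7.02 to 8.30 in CCl4 liver, and Mx1 stayed near background at 5.73 to 5.92 against 5.78 to 5.99. Oas1a was not well above background on any FSP1 ablated array, at 5.72 to 5.76, and was above it on 3 of the 6 CCl4 arrays, at 5.72 to 5.97. Oas1a and Oas1g are close paralogs, so probes designed for one may also catch the other.

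Of the 6 GTPase genes, which act on vacuoles that hold parasites and bacteria, Gbp2 fell (chr3:142620663-142638008). It read 7.74, 7.50, 7.54 and 7.45 on the FSP1 ablated arrays, against 7.82, 7.94 and 8.34 as the lowest, median and highest CCl4 arrays, a narrow gap with no overlap. The difference was -0.48 (SE 0.11; adjusted p = 0.00852). Gbp3, its neighbour on chromosome 3, differed by -0.54 (SE 0.19; adjusted p = 0.081), and its second probe by -0.52. Irgm1 was the brightest member probe, at 12.01 to 12.16 in FSP1 ablated and 11.78 to 12.50 in CCl4 liver, and Igtp read 8.63 to 9.39 against 8.47 to 9.64. Both ranges lie within those of the CCl4 arrays.

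None of the 4 antigen processing genes passed, with differences of -0.28 to -0.02. These genes lie side by side in the major histocompatibility complex on chromosome 17 and encode 2 immunoproteasome subunits and both chains of the peptide transporter. Tap2 read 9.07, 8.73, 9.29 and 9.10 on the FSP1 ablated arrays, against 8.67, 9.14 and 9.36. Psmb8 read 7.17, 6.93, 7.59 and 7.43, against 7.11, 7.33 and 7.61. Tap1 read 6.38, 6.36, 6.93 and 6.42, against 6.38, 6.76 and 7.27. In all 3 the groups overlap along most of their range.

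**Figure D3:**
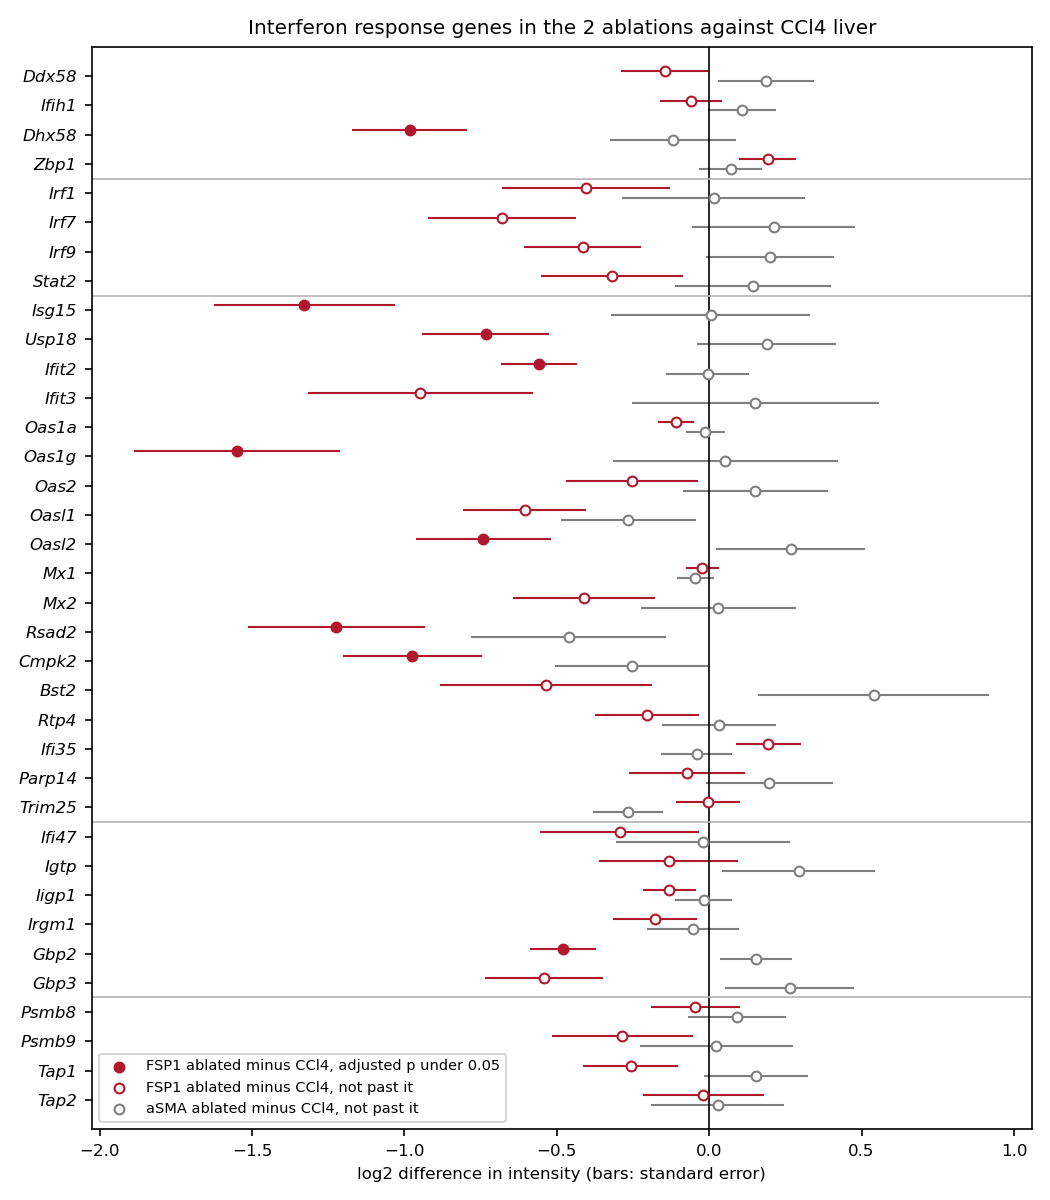
Log2 difference of each tested member (rows, by role) in FSP1 ablated against CCl4 liver (red) and in aSMA ablated against CCl4 liver (grey), with standard errors; filled points passed an adjusted p of 0.05. Red points lie left of 0 for 34 of 36 members, and no grey point is filled.

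The CCl4 group itself was uneven in these genes. Arrays 4 to 6 had a median member deviation of 0.22, 0.27 and 0.28 from the genes' means over all arrays, and arrays 1 to 3 of -0.24, 0.16 and -0.03. On average 26 of 36 members were higher on arrays 4 to 6 and 10 lower. For 11 members all of arrays 4 to 6 lay above all of arrays 1 to 3, and for 2 all lay below, against 16.3% and 14.5% of all genes. Oas1g averaged 9.84 on arrays 4 to 6 and 8.72 on arrays 1 to 3, Isg15 8.77 and 8.14, and Ifit3 9.10 and 7.98. The same line separates high from low Alb signal and, apart from array 4, Y-linked from Xist signal, and the part of these in the result was not tested.

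Next only CCl4 arrays 1 to 3 stood as the CCl4 group, which like the FSP1 ablated arrays have high Xist and dim Alb. Of 36 members 3 then fell, close to the 7.21% of all genes called lower. They were Dhx58 at -0.65 (adjusted p = 0.015), Oas1g at -0.99 (adjusted p = 0.0454) and Gbp2 at -0.51 (adjusted p = 0.0169). The median member difference was then -0.23, with 29 of 36 differences below 0 against 44.4% over all genes. Isg15, at -1.01, had adjusted p = 0.0564, and Cmpk2, at -0.56, had adjusted p = 0.0683. Against CCl4 arrays 4 to 6, 14 members fell, with 9.57% of all genes called lower, and 31 of 36 differences were below 0. Oas1g then differed by -2.11 (adjusted p = 0.00039) and Irf7 by -1.09 (adjusted p = 0.00336). Gbp2 was the called member that varied least between these comparisons, at -0.51 and -0.44. FSP1 ablated array 3, at a median member deviation of 0.03, stood above the other 3 FSP1 ablated arrays at -0.18, -0.41 and -0.23.

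**Figure D4:**
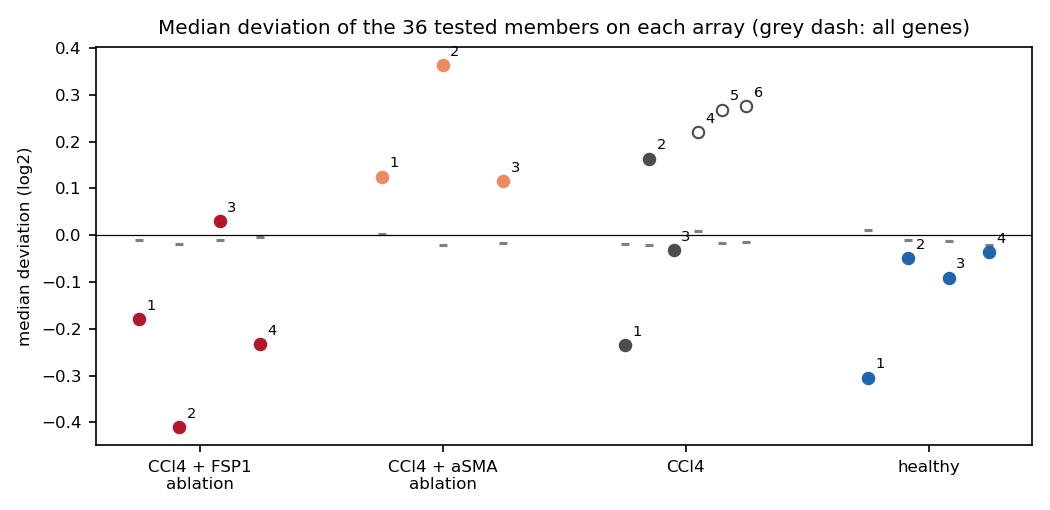
Median deviation of the 36 tested members from each gene's mean over 17 arrays (log2), 1 numbered point per array, with grey dashes for the median over all genes. The aSMA ablated arrays lie at 0.12 to 0.36, 3 of 4 FSP1 ablated arrays at -0.41 to -0.18, and the CCl4 arrays spread from -0.24 to 0.28, with arrays 4 to 6 as open circles.

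Other genes of the pathway were read beside the members in the same FSP1 ablated against CCl4 comparison. Of 34 further interferon-induced genes tested, 4 fell and none rose, with a median of -0.07: Ly6e, a surface protein that alters viral entry, at -1.41 (SE 0.28; adjusted p = 0.00339), Ifi27l2a at -1.35 (adjusted p = 0.00629), Samd9l at -0.70 (adjusted p = 0.00943), and Ifi27. Ly6e read 10.01, 9.80, 10.45 and 10.08 on the FSP1 ablated arrays, all below the CCl4 arrays at 10.69 to 12.21. Of 12 class I presentation genes 1 fell, the proteasome activator Psme1 at -0.35 (adjusted p = 0.00877). Over all genes 7.25% were called lower and 5.42% higher, so 1 of 12 is near the share of all genes. No member of the lists of 8 receptors and kinases, 10 signal factors and brakes, 9 upstream sensing genes and 3 interferon-induced chemokines passed. Of 6 interferon ligand genes tested, Ifna1 rose by 0.24 (adjusted p = 0.0275), at 6.15 to 6.38 against 5.83 to 6.13, close to background. Ifnb1 and Ifng read 5.69 to 5.85 on all arrays and were not tested, and Ifnar1, at 5.68 to 5.74, likewise.

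Markers of immune and endothelial cells were read in the same comparison of FSP1 ablated with CCl4 liver. Of 7 macrophage and Kupffer cell markers, 1 rose, Clec4f at 0.47 (adjusted p = 0.0135), and none fell, and their summed linear signal was 4561 to 5891 against 3111 to 5468. None of 6 T cell, 4 NK cell, 3 B cell and 4 neutrophil markers passed. Summed T cell signal was 353 to 413 in FSP1 ablated and 366 to 434 in CCl4 liver, summed NK cell signal 289.7 to 404.3 against 285.8 to 430.2, and summed neutrophil signal 2469 to 5248 against 904 to 3702. These ranges overlap. Of 3 plasmacytoid dendritic cell markers, Cox6a2 rose by 1.54 (adjusted p = 0.0245), high on 3 of the 4 FSP1 ablated arrays and at 5.73 on array 3. The other 2 markers differed by -0.14 and -0.19 and did not pass. The list's summed signal, which includes Cox6a2, was 173.1 to 625.3 against 177.5 to 240.1. Of 6 endothelial markers 1 rose, Stab2 at 0.23 (adjusted p = 0.0321). Over all genes 5.42% were called higher and 7.25% lower in this comparison. The part of cell composition in the members' result was not tested.

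aSMA ablated liver was set against CCl4 liver in the same way. No member passed by limma, in either direction, where 0% of all genes were called higher and 0.00766% lower. The all-gene count depends on which CCl4 arrays serve: against CCl4 arrays 1 to 3, 4.05% of all genes were higher and 5.36% lower, and no member passed. With Y-linked signal as a block 209 of all genes passed, and again no member. At an unadjusted p under 0.05 there was 1 member, Trim25, a ubiquitin ligase that activates RIG-I, and 1448 of all genes. Member differences ran from -0.46 (SE 0.32) in Rsad2 to 0.54 (SE 0.38) in Bst2, the gene of tetherin, with a median of 0.04. Trim25 differed by -0.27 (SE 0.12; adjusted p = 0.411), at 6.85, 6.57 and 6.65 against 6.86 to 7.11, without overlap. Oas1g read 9.05, 9.63 and 9.32 on the aSMA ablated arrays, inside the CCl4 range of 8.06 to 9.86. Isg15 read 8.42, 8.63 and 8.33 there, inside 7.58 to 9.20. Gbp2, at 8.18, 8.37 and 8.03, overlapped with 7.82 to 8.34. A miss of the threshold with 3 arrays does not show equal levels. Both ablations are set against the same 6 CCl4 arrays.

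The ablations were also compared directly, which uses no CCl4 array for the difference and sets Xist-positive arrays against each other. The level of Xist was not matched, at 7.265 to 7.989 on the FSP1 ablated and 8.35 to 9.408 on the aSMA ablated arrays. Its part in the members' result was not tested. Of 36 members, 7 were lower in FSP1 ablated than in aSMA ablated liver and none higher, with 2.63% of all genes called lower and 1.88% higher. The median member difference was -0.42, against 0.01 over all genes. All 7 had arrays that did not overlap, but the share of such genes over all genes was not counted, so this is no further support. Gbp2 read 7.74, 7.50, 7.54 and 7.45 in FSP1 ablated and 8.18, 8.37 and 8.03 in aSMA ablated liver, a difference of -0.63 (SE 0.13; adjusted p = 0.014). Oas1g differed by -1.60 (SE 0.40; adjusted p = 0.0359), Dhx58 by -0.86 (SE 0.22; adjusted p = 0.0409) and Oasl2 by -1.01 (SE 0.26; adjusted p = 0.0423). Isg15 differed by -1.33, Usp18 by -0.92 and Ifit2 by -0.55, with adjusted p of 0.0444 to 0.0456. Gbp3 and Irf7, at -0.81 and -0.89, did not pass (adjusted p = 0.0568 and 0.0891), though their arrays did not overlap either.

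These 7 calls rest on few arrays, as do those of all genes, of which 588 passed. Without aSMA ablated array 2, on which the members were highest, no member and 108 of all genes passed. Without FSP1 ablated array 1, 2 or 4 or aSMA ablated array 3, 1 member passed each time, with 377, 218, 397 and 242 of all genes. Without aSMA ablated array 1 there were 4 members and 324 of all genes, and without FSP1 ablated array 3 there were 9 and 708. Alb separates the same groups, at 6.22 to 6.50 in FSP1 ablated and 8.80 to 9.23 in aSMA ablated liver, a difference of -2.62 (SE 0.63; adjusted p = 0.0308), and its part in the members' result was not tested. Of the other interferon-induced genes, Ly6e was 1.64 lower (adjusted p = 0.0131) and Ifi30, a lysosomal thiol reductase of antigen processing, 0.78 lower (adjusted p = 0.0161), and of the class I genes Psme1 was 0.48 lower (adjusted p = 0.0128).

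CCl4 liver was set against healthy liver to place the members in the injury itself. Of 36 members, 9 rose and 4 fell, while 16.3% of all genes rose and 17.4% fell. Those that rose were Gbp2, Gbp3, Usp18, Ifit2, Cmpk2 and 4 genes of the OAS family. The largest of these differences was in Oas1g, 4.38-fold. The lower calls depend on the scale, since the healthy arrays were deposited on a scale of their own. On the deposited scale the all-gene median stood at 0.56, and 32 members were called higher and none lower. Median centring of the arrays gave an all-gene median of 0.35, with 26 members higher and none lower. Over all genes, 2125 were higher and 2267 lower in the main fit, 9052 and 68 on the deposited scale, and 6550 and 1395 with median centring. With Y-linked signal as a block 9 members were higher and 1 lower, with 10.4% of all genes higher and 8.87% lower. The scale of deposition, which differs between all CCl4 and all healthy arrays, cannot be told apart from the injury.

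Gbp2 read 7.82, 7.94 and 8.34 as the lowest, median and highest CCl4 arrays, against 6.93, 6.85, 6.87 and 6.92 on the healthy arrays, far apart, and rose by 1.14 (SE 0.11; adjusted p = 2.65e-06). Usp18 read 9.26, 9.94 and 10.20, against 8.06, 8.34, 8.64 and 8.56, and rose by 1.49 (SE 0.21; adjusted p = 9.03e-05). Oas1g read 8.06, 9.60 and 9.86, against 6.91, 7.48, 7.11 and 7.10, and rose by 2.13 (SE 0.34; adjusted p = 0.000241). In these 3 genes the groups did not overlap. Gbp3 rose by 0.93 (SE 0.19; adjusted p = 0.00191) and Ifit2 by 0.58 (SE 0.12; adjusted p = 0.00253), also without overlap. The share of genes without overlap over all genes was not counted, so this is no further support. Cmpk2, Oasl1, Oas2 and Oasl2 rose by 0.99, 0.87, 0.91 and 0.88 (adjusted p = 0.00393, 0.0041, 0.0048 and 0.00711). Relative to the median of all genes on the deposited scale, Oas1g was 2.44 higher, Usp18 1.97 and Gbp2 1.40. The 6 CCl4 arrays also serve in the FSP1 ablated against CCl4 comparison, so the calls in one are not independent of those in the other. Of the genes called there, 3 did not pass here. Isg15 averaged 8.45 ± 0.59 in CCl4 and 8.38 ± 0.57 in healthy liver (SD, n = 6 and 4), Dhx58 differed by 0.34 (adjusted p = 0.179), and Rsad2 by 0.69 (adjusted p = 0.0809). On the deposited scale all 3 passed, at 1.13, 1.34 and 1.69, which is 0.57, 0.78 and 1.13 above the all-gene median.

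**Figure D5:**
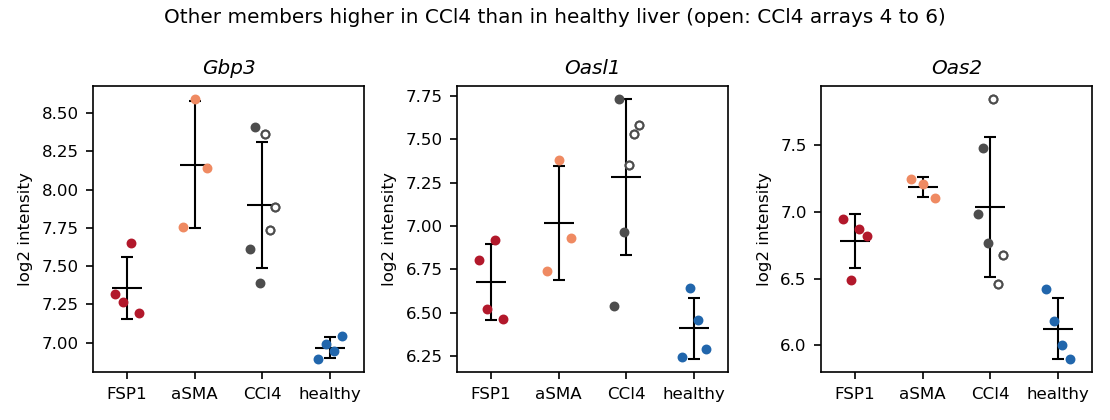
Normalized log2 intensity of Gbp3, Oasl1 and Oas2, the members higher in CCl4 than in healthy liver that are not among those lower after FSP1 ablation, 1 point per array, with group means and SDs (bars), from left to right FSP1 ablated, aSMA ablated, CCl4 and healthy liver; open circles are CCl4 arrays 4 to 6. All 4 healthy arrays lie below all CCl4 arrays for Gbp3 and Oas2, and healthy array 2 lies above the lowest CCl4 array for Oasl1. The share of genes without overlap over all genes was not counted.

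The 4 members called lower in CCl4 liver were Zbp1 at -0.66 (SE 0.09; adjusted p = 0.000108), Ifi35 at -0.48 (adjusted p = 0.00289), Igtp at -0.72 (adjusted p = 0.0247) and Tap2 at -0.60 (adjusted p = 0.0318). On the deposited scale all 4 differences were above 0, at 0.28, 0.56, 0.36 and 0.47, and with median centring at 0.06, 0.35, 0.15 and 0.26. Relative to the median of all genes on either of these scales, Zbp1 was at -0.29, Igtp at -0.20, Tap2 at -0.09 and Ifi35 at 0.00. Igtp read 8.47, 9.13 and 9.64 as the lowest, median and highest CCl4 arrays, against 9.42, 9.68, 10.06 and 10.05 on the healthy arrays. The difference of Igtp was -1.04 when CCl4 arrays 1 to 3 stood for the group (adjusted p = 0.00284) and -0.40 when arrays 4 to 6 did (adjusted p = 0.22).

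Around the members, 12 of 34 other interferon-induced genes rose with CCl4 and none fell, led by Samd9l at 1.49 (adjusted p = 8.47e-06), Ifi30 at 1.24 (adjusted p = 1.21e-05) and Ly6e at 1.91 (adjusted p = 0.000118). Of 8 receptor and kinase genes 6 rose, among them the interferon receptor chains Il10rb at 0.55, Ifngr1 at 1.18 and Ifnar2 at 0.73. Of 10 signal factors and brakes, Irf8 rose by 0.92 and Pias1 by 0.42, and Irf3 fell by 0.51. Of 9 upstream sensing genes, Tlr7 rose by 0.93 and Mavs fell by 0.59. Of 6 ligand genes, Ifna1 and Ifna6 fell by 0.54 and 0.58, at low levels of 5.83 to 6.86 in CCl4 liver. Over all genes 16.3% rose and 17.4% fell. Lower calls against healthy liver depend on the scale, and Irf3, Mavs, Ifna1 and Ifna6 were read only on the quantile normalized scale. Of 7 macrophage and Kupffer cell markers 4 rose and none fell, with summed signal of 3111 to 5468 in CCl4 and 2242 to 3281 in healthy liver, and 2 of 4 neutrophil markers rose. Their part in the members' result was not tested.

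Set against healthy liver, the ablated groups differed in where the members stood. In FSP1 ablated liver, 2 members were higher and 4 lower, with 8.79% of all genes higher and 8.76% lower. All 4 neutrophil markers were higher, with a median of 2.14 and a summed signal of 2469 to 5248 in FSP1 ablated and 440.6 to 1108 in healthy liver. Of 7 macrophage and Kupffer cell markers 4 were higher, with a median of 0.77 and a summed signal of 4561 to 5891 against 2242 to 3281. Their part in the members' result was not tested. Gbp2 was 0.67 higher (SE 0.12; adjusted p = 0.002) and Usp18 0.75 higher (SE 0.23; adjusted p = 0.0339). Zbp1 was 0.47 lower (adjusted p = 0.00717), Isg15 1.26 lower (SE 0.33; adjusted p = 0.0162), Igtp 0.85 lower (adjusted p = 0.0296) and Dhx58 0.64 lower (adjusted p = 0.0449). On the deposited scale Zbp1, Igtp and Dhx58 were above 0, at 0.40, 0.23 and 0.27, and Isg15, at -0.28, did not pass (adjusted p = 0.429). On healthy array 1 Isg15 read 7.54, against 8.62 to 8.75 on the other healthy arrays. Without that array 10 members and 3021 of all genes passed, against 2290 of all genes in the main fit. There were 2 members without healthy array 4 or FSP1 ablated array 2, with 1397 and 1485 of all genes. Without healthy array 2 or 3 there were 3 members, with 1622 and 1419 of all genes. With Y-linked signal as a block none passed, where 0.904% of all genes were higher and 0.743% lower against 8.79% and 8.76% without it. This signal is high on no FSP1 ablated array and on all 4 healthy arrays. Ifit2 and Cmpk2 read 6.05 to 6.58 and 6.34 to 6.94 in FSP1 ablated liver, against 6.23 to 6.33 and 6.36 to 6.90 in healthy liver.

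In aSMA ablated liver, 7 members were higher than in healthy liver and 3 lower, with 11% of all genes higher and 11.3% lower. Of the neutrophil markers 3 of 4 were higher, and of the macrophage and Kupffer cell markers 4 of 7, with summed signals of 1191 to 2889 and 3833 to 4866 in aSMA ablated liver. Their part in the members' result was not tested. The higher members ones were Gbp2 at 1.30 (SE 0.13; adjusted p = 1.35e-05), Usp18 at 1.67 (adjusted p = 0.000326), Oas1g at 2.18 (adjusted p = 0.00146), Gbp3 at 1.19, Oasl2 at 1.14, Oas2 at 1.06 and Ifit2 at 0.57. Zbp1 at -0.59, Ifi35 at -0.52 and Trim25 at -0.41 were lower, and on the deposited scale they lay above 0 at 0.37, 0.55 and 0.43. The healthy arrays serve in each of these comparisons, so they are not independent of each other.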

How the data were processed

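Total RNA from the livers, extracted with Trizol and labelled with biotin per the labels' protocols, was measured on 17 Illumina arrays. The deposited intensity values hold 1 signal per probe and array, on a linear scale with some values below 0, and come from GenomeStudio (per the submitters' processing notes). The sources used here do not give its version, background correction or normalization. A separate table of 34 columns whose names match no label was not used.

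The deposited intensities were corrected with limma's normexp (limma 3.58.1, R 4.3.3; offset 50), taking each array's mode as background, quantile normalized and put on the log2 scale. Probes above the 95th percentile of background on at least 3 arrays were kept, 17741 of 25697. Genes with several probes were read by the brightest, which gave 13049 genes, of which 1082 are probes with no symbol. Symbols come from the platform annotation: 23978 probes have 1, 0 have several and 1719 have none. Through Entrez identifiers 23962 symbols were matched to RefSeq.

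One limma fit to all 17 arrays with group as its term gave 6 comparisons, adjusted over all genes by Benjamini-Hochberg at 0.05. The script was tested on simulated data. The members, roles and lists were chosen with earlier results of these data known. By a rule, up to 8 members per comparison with the smallest p are given in full, the 3 brightest of a role where none passes, and up to 3 genes of each other list. A probe not above background on any array of a group has only a bound there. Alternatives concerned normalization, offset, filter, probe, spread, replicate block, Y-linked signal as a block, parts of the CCl4 group and leaving out each array. The largest share of identical deposited values between 2 arrays was 0.891%, so no 2 arrays were taken as 1 sample. Promoter sequences are RefSeq's, on GRCm38.p6. Figures were drawn with matplotlib 3.10.9 in Python 3.11.15.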

Additional observations from a re-analysis of the deposited data

Results flagged for a closer look

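In 8 of 108 member-by-group sets of 4 to 6 arrays, 1 array stood apart from the rest of its group by Dixon's criterion, where chance gives about 1 in 20. Healthy array 1 was the lowest of its group in 4 of them, with Isg15 at 7.54, Bst2 at 8.65, Trim25 at 6.80 and Tap2 at 8.93, against 8.62, 10.22, 7.19 and 9.83 as the next lowest healthy arrays. Its median member deviation was -0.30, against -0.09 to -0.04 on the other 3. Healthy array 4 was low in Dhx58 at 7.43, and healthy array 2 high in Tap1 at 6.85. FSP1 ablated array 3 was high in Tap1 at 6.93, with the next at 6.42. CCl4 array 3 was high in Irf1 at 11.35, with the next at 10.30.

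Levels of 7 members differed between FSP1 ablated and aSMA ablated liver by limma's direct comparison of the groups, where 588 of all genes passed. Without aSMA ablated array 2 no member and 108 of all genes passed. Alb also separates these groups, and its part in the members' result was not tested. As FSP1 ablated minus aSMA ablated liver the log2 differences were -1.60 in Oas1g, -1.33 in Isg15, -1.01 in Oasl2, -0.92 in Usp18, -0.86 in Dhx58, -0.63 in Gbp2 and -0.55 in Ifit2. The groups' arrays did not overlap in any of the 7, and the share of such genes over all genes was not counted.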

How the results depend on the processing

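The number of members that pass in FSP1 ablated against CCl4 liver, 9 in the main fit, was 3 against CCl4 arrays 1 to 3, 14 against arrays 4 to 6 and 6 to 13 under the other alternatives, with 7 to 13 when single arrays were left out. All genes that passed numbered 1653 in the main fit and 1107 to 2270 under the alternatives. Against CCl4 arrays 1 to 3 the sign changed for 5 members that had not passed, Stat2 at 0.0096, Tap1 at 0.0076, Rtp4 at 0.056, Parp14 at 0.10 and Igtp at 0.19. Between aSMA ablated and CCl4 liver, array weights gave 1 member, Trim25 at -0.32 (adjusted p = 0.0226), where 1629 of all genes passed, and no other alternative run gave any. Between FSP1 and aSMA ablated liver the count of 7 became 1 without a filter on dim probes, 16 with array weights (2 higher, 14 lower), 4 with the replicate block, and 0 to 9 when single arrays were left out. All genes that passed, 588 in the main fit, became 381, 2511 (1272 higher, 1239 lower), 577, and 108 to 708. In CCl4 against healthy liver the count of 13 became 32 on the deposited scale and 26 with median centring. FSP1 ablated against healthy liver, with 6, gave 21 on the deposited scale and 14 with median centring, all higher, 11 with array weights (2 higher, 9 lower), 0 when Y-linked signal was a block, and 2 to 10 when single arrays were left out. Over all genes 1147 were higher and 1143 lower in the main fit, 8392 and 72 on the deposited scale, 6353 and 651 with median centring, and 1995 and 1999 with array weights, and 215 passed with the Y-linked block. With single arrays left out, 1397 to 3021 of all genes passed. In aSMA ablated against healthy liver, with 10, the 2 scales gave 31 and 26, all higher, where 8613 and 6501 of all genes were higher and 53 and 998 lower.

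Members called lower than in healthy liver changed sign on those scales, except Isg15 in FSP1 ablated liver, which stayed below 0. In CCl4 liver Zbp1, Ifi35, Igtp and Tap2 were at 0.28, 0.56, 0.36 and 0.47 on the deposited scale and at 0.065, 0.35, 0.15 and 0.26 with median centring. In FSP1 ablated liver Dhx58, Zbp1 and Igtp were at 0.27, 0.40 and 0.23, and at 0.089, 0.22 and 0.049. In aSMA ablated liver Zbp1, Ifi35 and Trim25 were at 0.37, 0.55 and 0.43, and at 0.16, 0.35 and 0.23. By construction both scales leave the lower scale of the healthy arrays partly in place, and the cause of the other shifts was not tested. With the replicate block FSP1 ablated against CCl4 liver gave 6 members. Arrays of the same number did not deviate together (median r 0.04 over 21 pairs, from -0.30 to 0.38, against 0.02 over the other pairs), so the main fit does not pair them. A weak median r over all genes cannot exclude a pairing.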

Other observations

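The 9 members that fell after FSP1 ablation can be set beside their healthy levels. The 6 CCl4 arrays serve in both comparisons, FSP1 ablated against CCl4 and CCl4 against healthy liver, with opposite sign, so that a gene called in both is no independent support. In FSP1 ablated liver Ifit2, Cmpk2 and Oasl2 averaged 6.30 ± 0.22, 6.61 ± 0.25 and 7.33 ± 0.28 (SD, n = 4), against 6.28 ± 0.05, 6.59 ± 0.23 and 7.19 ± 0.18 in healthy liver (SD, n = 4). Isg15, Dhx58 and Rsad2 did not pass between CCl4 and healthy liver on the quantile normalized scale. They averaged 7.13 ± 0.37, 7.05 ± 0.33 and 7.18 ± 0.50 in FSP1 ablated liver (SD, n = 4), against 8.38 ± 0.57, 7.69 ± 0.17 and 7.71 ± 0.31 in healthy liver (SD, n = 4). Oas1g, Usp18 and Gbp2 stayed above healthy liver on average, at 7.73 ± 0.58, 9.15 ± 0.36 and 7.56 ± 0.13 in FSP1 ablated liver (SD, n = 4). Their healthy levels were 7.15 ± 0.24, 8.40 ± 0.26 and 6.89 ± 0.04 (SD, n = 4). Usp18 and Gbp2 passed as higher there, and Oas1g did not. These levels were set side by side after they were seen, and those of the healthy arrays depend on the scale.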
